A study of Mus musculus
Rattus norvegicus and Mus musculus and Rattus norvegicus with 95 samples.

Results

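Ccl2 and Cxcl12 are 2 of the 13926 mouse-rat homologues listed in both tables of the series, and they were taken by gene symbol alone. Their levels are given here in bulk embryonic stem cell (ESC) lines and in single cells of mouse-rat allodiploid ESCs (AdESCs), which carry a mouse and a rat genome set in 1 cell, and of their derivatives. Every bulk library came from 1 cell line and is described by the labels as G0/G1 cells. F145 and F146 are mouse ESC lines, DA25 and DA53 are rat ESC lines, and MR1-1, MR2-1, RM1-1 and RM2-1 are AdESC lines. The 87 single cells form 11 samples, each 1 cell type of 1 AdESC line. Undifferentiated AdESCs gave 6 cells (MR1-1), 8 (MR2-1), 4 (RM1-1) and 6 (RM2-1). Embryoid bodies (EBs), aggregates in which ESCs differentiate in culture, gave 12 cells (MR2-1) and 5 (RM1-1). Mouse chimaeras gave 10 fibroblasts (MR1-1), 8 neurons (RM1-1) and 4 somatic testis cells (RM1-1), and rat chimaeras gave 4 lung cells (RM2-1) and 20 somatic testis cells (RM2-1). Every differentiated sample therefore rests on cells of 1 line, and the number of animals behind it is not given in the sources used here.

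Chemokines are small secreted proteins that direct cell migration through G-protein-coupled receptors, and their families are named for the spacing of conserved cysteines near the start of the mature protein. Ccl2, monocyte chemoattractant protein of the CC family, draws monocytes through the receptor Ccr2 and is induced in fibroblasts, smooth muscle cells and astrocytes by inflammatory signals that act through NF-kB. Cxcl12, or stromal cell-derived factor of the CXC family, is made steadily by many stromal cells and acts through Cxcr4, with Ackr3 as a scavenging receptor. It guides blood progenitors, germ cells and migrating neurons.

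The coding sequence around these cysteines is shown because it is what separates the families to which the genes belong. Capitals mark the cysteine codons of the motif, adjacent in Ccl2 and with 1 codon between them in Cxcl12. The sequences are of the mouse reference, in the annotation GENCODE M21 on GRCm38 (mm10), read on the plus strand from 5′ to 3′.
Ccl2: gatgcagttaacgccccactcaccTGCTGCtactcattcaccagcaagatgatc
Cxcl12: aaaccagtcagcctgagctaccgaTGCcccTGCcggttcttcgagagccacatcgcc
The Ccl2 stretch holds codons 34 and 35 of 148 in transcript Ccl2-201. Its 54 bases lie between chr11:82035737-82036535, split over exons 1 and 2. The Cxcl12 stretch holds codons 30 and 32 of 93 in transcript Cxcl12-203 and lies within exon 2, at chr6:117171484-117171540. The Ccl2 gene (ENSMUSG00000035385.5) spans chr11:82035571-82037453 on the plus strand. Its neighbour Ccl7, another CC chemokine, starts 8258 bp downstream of the end of Ccl2, with 0 genes starting between them. Ccl2 overlaps the minus-strand gene model Gm17268, and the library kit does not mark strand, so reads of the pair cannot be told apart. Cxcl12 (ENSMUSG00000061353.11) spans chr6:117168535-117181367 on the plus strand and overlaps 0 other genes.

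Values are FPKM as the authors deposited them, so they are scaled by gene length and by library size, and the read depth behind each is unknown. The summed FPKM of all homologues was 312695 to 377664 per bulk library and 213045 to 411555 per cell. The cell-type labels were checked against marker genes before any comparison. The RM2-1 lung sample listed the lung epithelial genes Sftpc, Sftpa1, Sftpd, Scgb1a1 and Epcam at 0 in all 4 cells. Of that list's 8 measured genes only Pdpn, which other cell types carry too, was above 1 FPKM, at a mean of 439 FPKM. In the same sample, 2 cells held 1868 and 2242 FPKM of Cyp11a1, the enzyme that starts steroid synthesis. The RM1-1 testis sample listed Sertoli genes Amh and Fshr and Leydig genes Cyp11a1 and Cyp17a1 at 0. Of the same lists it held Clu (mean 287 FPKM) and Star (mean 6.71 FPKM, in 2 of 4 cells), and Clu was also high outside the testis, at 2617 FPKM in lung. It carried the neuronal and glial genes Gap43 (mean 235 FPKM) and Slc1a3 (mean 154 FPKM). Both samples are called by their labels below, and the main comparison is given with and without them. The other labels held in part. Of 10 cells labelled fibroblast, 6 carried the epithelial gene Epcam at 45.5 to 310 FPKM. Of 8 labelled neuron, 4 had Tubb3 under 1 FPKM with the astrocyte gene Slc1a3 at 283 to 782 FPKM. Those 4 still held the neuronal gene Gap43, at 65.01 to 163 FPKM. Labels are kept as names for these cells as well. The RM2-1 testis cells listed Amh, Fshr and Cyp17a1 at 0, held Clu (mean 328 FPKM) in every cell and Star (mean 18.0 FPKM) at 1 FPKM or more in 8 of 20, and were rich in the smooth muscle genes Tagln (mean 3939 FPKM) and Myl9 (mean 995 FPKM). Some of them also held Nr5a1, another gene of the Leydig list, at up to 19.5 FPKM, and a lung cell held it at 42.9 FPKM.

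In the bulk lines Ccl2 was high in 1 mouse line, present in all AdESC lines and listed at 0 in both rat lines, while Cxcl12 stayed below 3 FPKM everywhere. Ccl2 measured 169 FPKM in F145 and 5.71 FPKM in F146. The rat lines DA25 and DA53 listed it at 0. The AdESC lines held 2.46 FPKM (MR1-1), 4.95 FPKM (MR2-1), 26.2 FPKM (RM1-1) and 2.69 FPKM (RM2-1), so F145 stood far above the other 7 libraries and the AdESC range enclosed the value of F146.

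**Figure D1:**
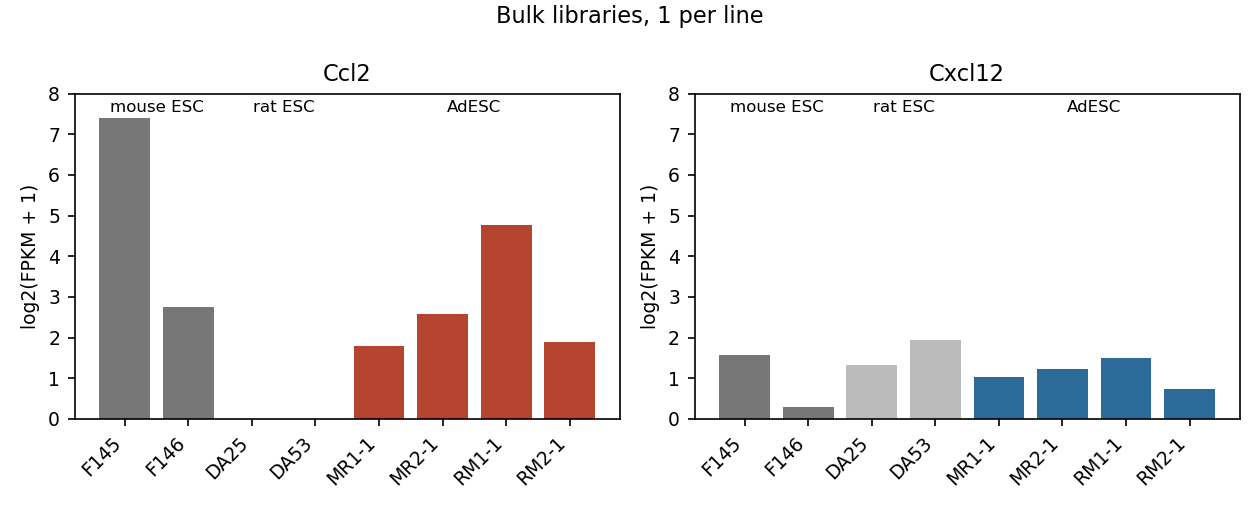
Level of Ccl2 (left) and Cxcl12 (right) in each bulk library, as log2(FPKM + 1), 1 bar per line, with no error because each line has 1 library. Ccl2 ranges from 0 in DA25 and DA53 to 169 FPKM in F145, whereas Cxcl12 lies between 0.230 and 2.83 FPKM.

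Differences between groups were tested with limma on log2(FPKM + 1), a scale that understates changes of low genes, with Benjamini-Hochberg adjustment over all genes tested and a threshold of 0.05. The lines are the replicates. Whether they were cultured or processed apart is not stated, and each p reflects the spread between these libraries alone, which may be technical. Ccl2 was lower in rat than in mouse lines, by -5.08 ± 1.32 on the log2(FPKM + 1) scale (SE, 2 against 2 lines, adjusted p = 0.0181), and no fold is given because both rat lines list it at 0. In that comparison 26.6% of the 8794 genes tested were called in either direction and 12.6% were called lower in rat, so a call was common. The submitters' notes list builds mm10 and rn5, so species cannot be told apart from reference or annotation, here or in later rat comparisons. Without F145 the difference was -2.75 (adjusted p = 0.107), without DA25 or DA53 the adjusted p was 0.0789 or 0.0819, and with no filter on low values it was 0.0541. Between AdESC and mouse lines Ccl2 differed by -2.32 ± 1.14 (95% interval -4.86 to 0.22, adjusted p = 0.298), where 3.89% of genes were called. That estimate rested on the pair of unequal mouse lines: it was 0.0067 without F145 (adjusted p = 0.998) and -4.65 without F146 (adjusted p = 0.0387).

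Against the rat lines, AdESCs were higher in Ccl2 in every library, with a difference of 2.75 ± 1.14 (4 against 2 lines, adjusted p = 0.161), which did not pass the threshold. In that comparison 9.7% of genes were called, and in 19.1% every AdESC library was above both rat libraries. With a pseudocount of 0.1 FPKM in place of 1 the difference was 5.79 and passed (adjusted p = 0.0127). The unequal AdESC lines, among which RM1-1 held the most Ccl2, and the zeros of the rat lines both enter this value.

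Cxcl12 gave no call in bulk. F145 held 1.97 FPKM, F146 0.230 FPKM, DA25 1.51 FPKM and DA53 2.83 FPKM. The AdESC lines held 1.04, 1.33, 1.81 and 0.666 FPKM (MR1-1, MR2-1, RM1-1 and RM2-1), so the AdESC range overlapped those of the mouse and the rat lines, and F146 was the lowest library. AdESCs differed from mouse lines by 0.19 ± 0.42 (adjusted p = 0.856) and from rat lines by -0.51 ± 0.42 (adjusted p = 0.477). Rat lines differed from mouse lines by 0.70 ± 0.48 (adjusted p = 0.315). Without F146 the AdESC difference from mouse lines was -0.45, with an adjusted p of 0.627.

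Fibroblast genes were also highest in F145, but their summed level did not follow Ccl2 among the other lines. Of the 19 measured of 20 listed fibroblast markers, 17 were highest in F145, as were 13.4% of all genes averaging 1 FPKM or more, and their summed level was 4071 FPKM there, against 754 FPKM in F146 and 750 to 890 FPKM in the AdESC lines. RM1-1, with the most Ccl2 among AdESCs, summed to 861 FPKM, below MR2-1 at 890 FPKM. The rat lines DA25 and DA53 summed to 706 and 972 FPKM, but held 14 of the 19 under 1 FPKM and listed 7 at 0 (Col1a2, Col3a1, Thy1, Dcn, Lum, S100a4 and Fap). Fn1, Timp1 and Sparc led these rat sums. By mean log2(FPKM + 1) over the 19 genes the order lay close to that of Ccl2, with RM1-1 and F146 changing places. The rat lines were lowest (DA53 1.45, DA25 1.57) and F145 was highest (6.15). Between them lay MR1-1 (2.74), RM2-1 (3.58), MR2-1 (3.736), RM1-1 (3.740) and F146 (3.86). No label names feeder cells, the fibroblasts on which ESCs are often grown. The part of such cells in the bulk values was not tested, and in bulk RNA fewer cells of a type and less RNA per cell cannot be told apart.

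The genes most like Ccl2 over the 8 bulk libraries carried the same high F145 value. By Pearson r of log2(FPKM + 1) among 8793 other genes averaging 1 FPKM or more, these were the cyclin Ccnd2 (r = 0.993), Ccl7 (0.983), the mesenchymal cadherin Cdh11 (0.981), Pcdhgc3 (0.977) and Asb1 (0.976). Ccl7 measured 78.3 FPKM in F145, 5.22 FPKM in F146, 0 in both rat lines and 1.75 FPKM (MR1-1), 5.72 FPKM (MR2-1), 17.0 FPKM (RM1-1) and 5.28 FPKM (RM2-1) in AdESCs. Cxcl12 was alike to other genes, among them Smarca4 (0.960), Syvn1 (0.958), Sirt6 (0.945) and Mmp14 (0.945). The r between Ccl2 and Cxcl12 was 0.0573. These coefficients describe 8 libraries that share line, species and scaling, and no p is attached to them.

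Like Ccl2, the ligands Ccl5, Ccl7 and Cxcl1 were listed at 0 in both rat lines, so they could only be called lower there. Of 38 ligands listed, 32 were in the tables and 12 had a mean high enough to be tested. Rat lines were lower than mouse lines in 6 of the 12 (Ccl2 itself, Ccl5, Ccl7, Ccl25, Cxcl1 and Cxcl16) and higher in 0, beside 12.6% of all genes called lower. The median difference over the 12 was -2.32, against 0.08 over all genes tested. Of the 32 ligands, 2 (DA25) and 3 (DA53) reached 1 FPKM in rat lines, so most passed the filter through the other lines. The direction of a median difference from rat lines was thus largely set by the filter, and nothing is read from it. Ccl5, a chemoattractant of T cells, measured 79.6 FPKM in F145, 10.0 FPKM in F146 and 0 in both rat lines. Cxcl1, which draws neutrophils, measured 97.1 FPKM in F145, 2.34 FPKM in F146 and 0 in both rat lines. Against rat lines, AdESCs were higher on average in 10 of the 12, with a median difference of 1.37, and 1 passed beside 9.7% of all genes: Cxcl16, by 1.85 ± 0.47 (adjusted p = 0.0347). They gave 0 calls against mouse lines, where 3 ligands (Ccl5, Ccl25 and Cx3cl1) had an unadjusted limma p under 0.05.

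Receptors and NF-kB targets were tested over fewer members. Of 24 receptors and related binding proteins, 18 were in the tables; Ccr2 and Ackr3 are not analysed here. Only Cxcr1 and Dpp4, a protease that trims chemokines, had a mean high enough for a bulk test. Cxcr1 was higher in rat lines by 1.96 ± 0.49 (adjusted p = 0.0153), as 14.1% of genes were, and Dpp4 was lower by -1.94 ± 0.46 (adjusted p = 0.0121). Cxcr4, the signalling receptor of Cxcl12, lay at 0.838 FPKM in F145, 0.397 FPKM in F146, 0 and 0.0192 FPKM in DA25 and DA53, and 0.457 to 1.23 FPKM in the AdESC lines. Of 15 NF-kB targets tested, 5 were lower in rat lines (Birc3, Csf1, Nfkbia, Tnfaip2 and Vcam1), beside 12.6% of all genes, and 1 was higher, the atypical inhibitor family member Bcl3, which AdESCs held at a lower level than rat lines as well (-2.14 ± 0.41, adjusted p = 0.00934).

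Single AdESCs held almost none of either transcript. Of 24 undifferentiated cells, 0 reached 1 FPKM of Ccl2 and 0 reached 1 FPKM of Cxcl12, which allows a share of up to 12.5% of such cells. Ccl2 was above 0 in 3 cells, at 0.935 FPKM (MR1-1), 0.671 FPKM (MR2-1) and 0.293 FPKM (RM2-1). Cxcl12 was above 0 in 1 cell of RM2-1, at 0.0703 FPKM. In each of the 4 AdESC lines the bulk library lay above its highest single cell for both genes, most widely for Ccl2 in RM1-1, with 26.2 FPKM in bulk and 0 in all 4 cells.

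**Figure D2:**
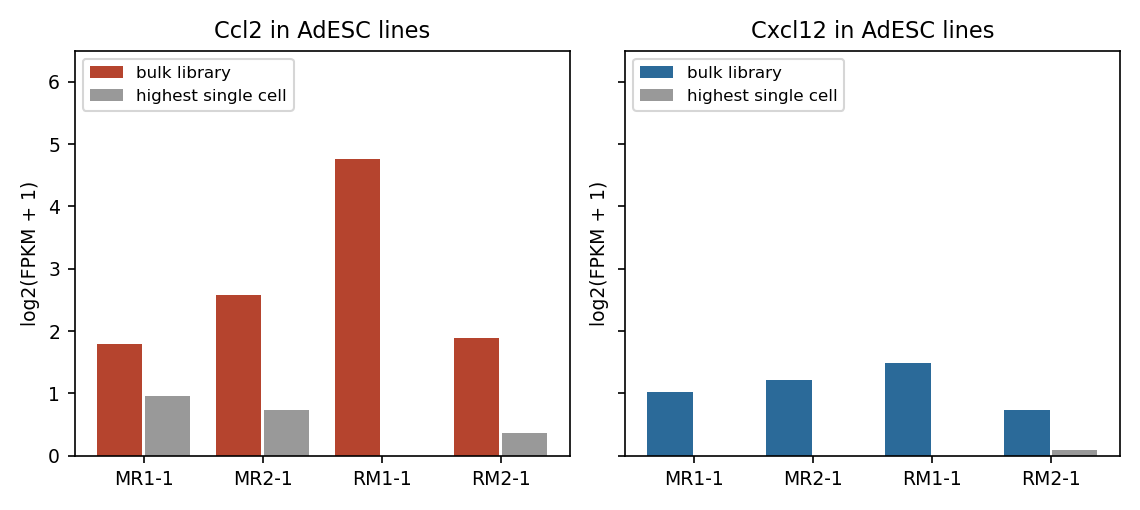
Ccl2 (left) and Cxcl12 (right) in the 4 AdESC lines as log2(FPKM + 1): the bulk library (coloured bars) and the highest single cell of the same line (grey bars, absent where every cell is at 0). Every coloured bar is taller than its grey bar. Bulk and single-cell values were made separately, so no test was run.

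The bulk and single-cell tables differ in level for genes of the stem cells too. Pou5f1, the pluripotency factor Oct4, measured 660 to 807 FPKM in the AdESC bulk libraries and 62.9 to 85.2 FPKM in the means of their cells. The fibroblast collagen Col3a1 measured 4.72 to 23.9 FPKM in the same bulk libraries and 0 in all 24 cells, as did Ccl7 and Cxcl1 with 1.04 to 17.0 FPKM in bulk. The summed fibroblast list was 210 to 263 FPKM in the AdESC cell means, against 750 to 890 FPKM in bulk.

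Both chemokines were higher in differentiated than in undifferentiated samples. The mean Ccl2 level of a sample was 0.156, 0.0838, 0 and 0.0489 FPKM in AdESCs (MR1-1, MR2-1, RM1-1 and RM2-1). The 7 differentiated samples ran from 0.0798 FPKM (RM1-1 EB) through a median sample, RM1-1 neuron, at 127 FPKM to 3999 FPKM (RM2-1 lung). The groups overlapped only through the RM1-1 EB sample, whose mean was below that of 2 AdESC samples. The difference was 6.46 ± 1.59 on the log2(FPKM + 1) scale (limma, 7 against 4 samples, adjusted p = 0.0122), and the exact two-sided permutation test over the samples gave p = 0.0182. For Cxcl12, AdESC sample means were 0, 0, 0 and 0.0117 FPKM, and differentiated samples ran from 0.350 FPKM (MR2-1 EB) through 14.2 FPKM (RM1-1 EB, the median sample) to 123 FPKM (RM2-1 testis). These groups did not overlap. Cxcl12 differed by 4.05 ± 1.05 (adjusted p = 0.0166), with an exact two-sided permutation p of 0.00606, the smallest that 7 against 4 samples can give.

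In this comparison 15.9% of 8421 genes were called in either direction and 7.37% were called higher, while every differentiated sample exceeded every AdESC sample in 5.87% of genes. Without the lung and RM1-1 testis samples, an alternative chosen after seeing the data, Ccl2 differed by 5.78 ± 1.46 (adjusted p = 0.0181) and Cxcl12 by 3.82 ± 1.13 (adjusted p = 0.0367). The differences rest on few cells in several samples. When each sample entered as the mean over cells of log2(FPKM + 1), which gives less weight to single high cells, they were 3.30 for Ccl2 (adjusted p = 0.0918) and 2.72 for Cxcl12 (adjusted p = 0.0656). With no filter on low values the adjusted p was 0.0563 for Ccl2 and 0.0597 for Cxcl12. Without the MR1-1 or the RM1-1 AdESC sample the adjusted p for Cxcl12 was 0.0504 or 0.0512.

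**Figure D3:**
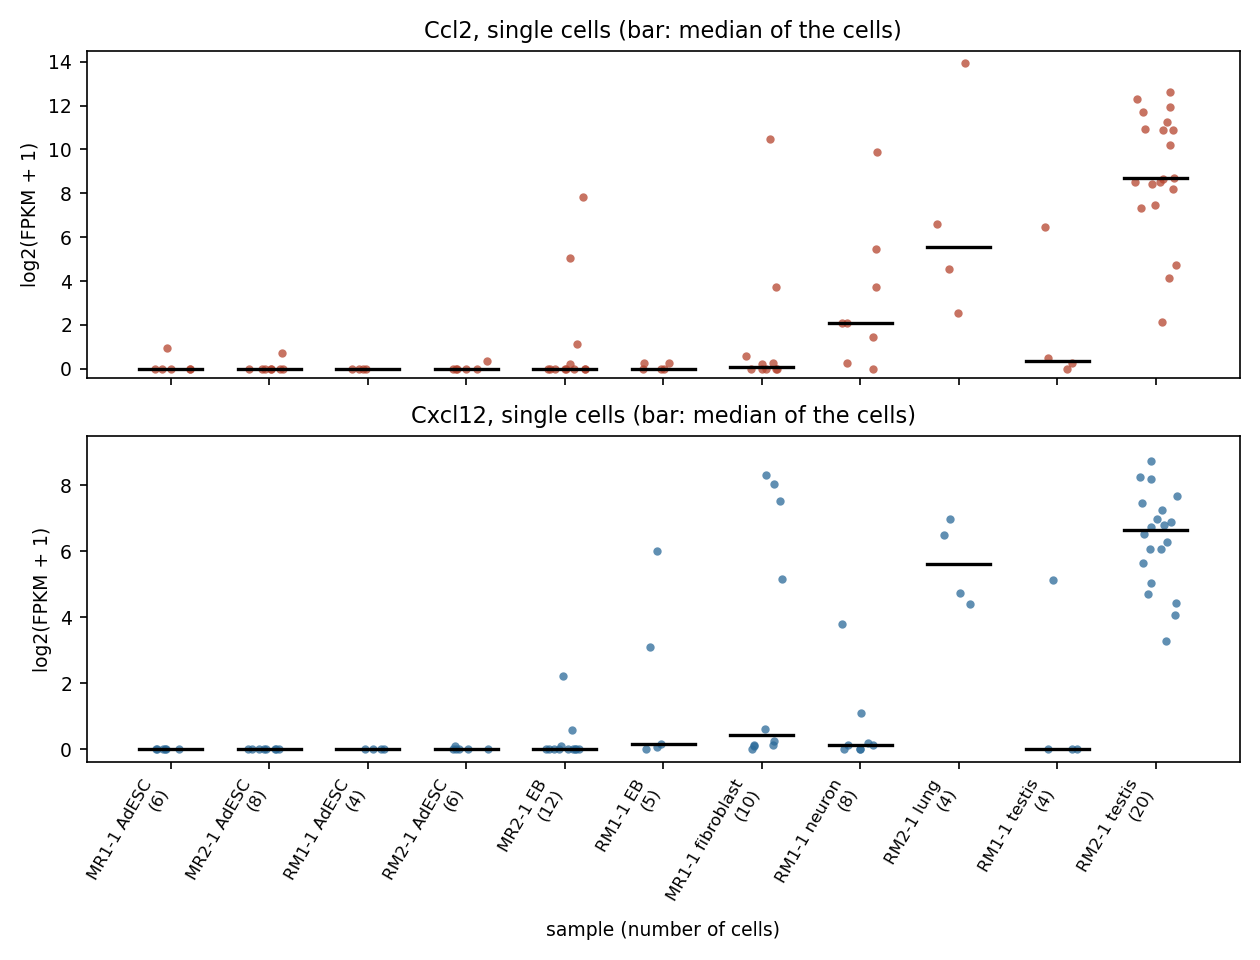
Level of Ccl2 (top) and Cxcl12 (bottom) in each of the 87 cells, as log2(FPKM + 1), by sample; the bar is the median cell and the number of cells is in brackets. All 20 cells of RM2-1 testis and all 4 of RM2-1 lung lie at or above 1 FPKM for both genes, whereas no AdESC does.

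The order of the samples depended on whether mean or median was read. By mean, Ccl2 was highest in RM2-1 lung, followed by RM2-1 testis, fibroblast, neuron, RM1-1 testis and MR2-1 EB. By median cell, RM2-1 testis led at 411 FPKM, with RM2-1 lung at 58.6 FPKM, neuron at 3.27 FPKM and fibroblast at 0.0772 FPKM. For Cxcl12 the means ran from RM2-1 testis through fibroblast (79.5 FPKM), RM2-1 lung (64.5 FPKM), RM1-1 EB, RM1-1 testis (8.48 FPKM) and neuron (1.78 FPKM) to MR2-1 EB. For either gene, 0 of the 10 neighbouring pairs in the order of means differed by more than the larger of their SDs between cells. Neighbours are the closest pairs of an order, and an SD between cells is not the error of a mean. The count therefore cannot show whether the order is resolved. Fibroblast, neuron and lung have 1 sample each and no test of their own.

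Somatic testis cells of RM2-1 held both genes throughout, as did the 4 lung cells. Ccl2 ran from 3.43 FPKM through a median of 411 FPKM to 6350 FPKM, with a mean of 1527 ± 1841 FPKM (SD between 20 cells), and 9 cells held at least 1000 FPKM. The gene ranked 13th of 13926 by mean level there. Cxcl12 ran from 8.73 FPKM through 98.2 FPKM to 420 FPKM, with a mean of 123 ± 109 FPKM, and ranked 502nd. Both genes reached 1 FPKM in 20 of 20 cells (exact Clopper-Pearson 95% interval 83.2% to 100%). Cell-to-cell spread was wider for Ccl2: the SD of log2(FPKM + 1) was 2.84, above 99.7% of genes of that sample, and 1.47 for Cxcl12, above 55.4% of genes. Ccl2 was the higher of the pair in 17 of the 20 cells, and the gene lengths are already in the FPKM scale. RM2-1 testis and RM2-1 lung were the only samples from rat chimaeras and the only differentiated samples of that line. For their difference from other samples, chimaera species, line and tissue cannot be told apart.

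The RM1-1 testis sample, of another line and from mouse chimaeras, differed from that pattern. Its 4 cells held 0, 0.190, 0.393 and 87.8 FPKM of Ccl2, and Cxcl12 was 33.9 FPKM in 1 cell and 0 in the other 3. The cell with Ccl2 and the cell with Cxcl12 were different cells, and both carried Gap43 (604 and 160 FPKM). Over the samples, testis exceeded AdESCs by 7.46 ± 1.44 for Ccl2 (limma, 2 against 4 samples, adjusted p = 0.00643) and by 5.09 ± 1.08 for Cxcl12 (adjusted p = 0.0104), where 12.3% of 8218 genes were called and 6.19% were called higher. Neither gene overlapped between the groups, as held in the upward direction for 18.7% of genes. With cell line as a replicate block the Cxcl12 difference was 4.50 and its adjusted p 0.055. Without RM2-1 testis neither passed: Ccl2 differed by 4.43 (adjusted p = 0.0934) and Cxcl12 by 3.24 (adjusted p = 0.121), with RM1-1 testis as a lone sample assumed to vary like the other groups. With no filter on low values the adjusted p was 0.0621 for Ccl2 and 0.0673 for Cxcl12.

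Within RM2-1 testis, Ccl2 varied with Ccl7 and not with Cxcl12. Over the 20 cells and 3578 genes averaging 10 FPKM or more, Ccl7 had the highest Pearson r with Ccl2 (0.76), while the quartiles over all these genes were -0.20 and 0.14. Ccl7 ran from 0 through 29.5 FPKM to 2355 FPKM, and its highest value was in the cell with the most Ccl2. Colony-stimulating factor Csf1 (r = 0.60), the NF-kB inhibitor Nfkbia (0.57), Cxcl1 (0.55), Cxcl16 (0.54) and the adhesion molecule Icam1 (0.53), all taken from the ligand and NF-kB lists, ranked from 18 to 38 by r. Others of these lists, Nfkbiz (0.43), Cxcl3 (0.31), Ccl17 (0.30) and Cxcl5 (0.24), ranked from 109 to 496. Ptgs2, the prostaglandin synthase on the same NF-kB list, had r = -0.10 with Ccl2. Cxcl12 had r = -0.02 with Ccl2, 0.15 with Ccl7 and 0.07 with Cxcl1. The cells share 1 sample, so these coefficients are a description. How reads shared by related chemokine genes were counted is not given in the sources used here.

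**Figure D4:**
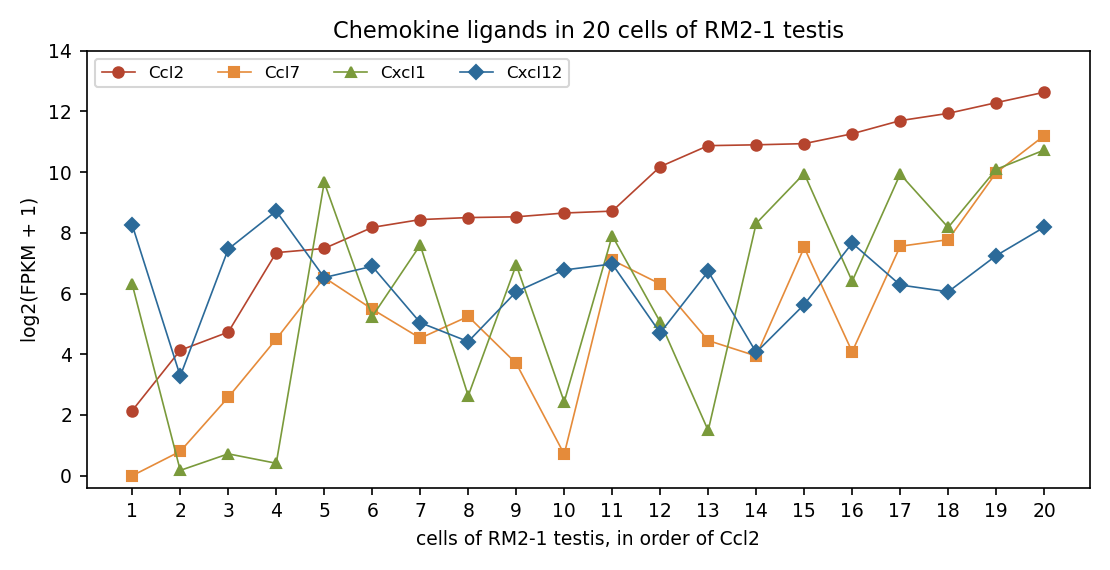
Ccl2, Ccl7, Cxcl1 and Cxcl12 in the 20 cells of RM2-1 testis as log2(FPKM + 1), with the cells placed in order of Ccl2. Ccl7 is highest in the cell with the most Ccl2 and 0 in the cell with the least, while Cxcl12 shows no trend along the order.

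In the RM2-1 lung sample the mean was set by 1 cell. The 4 cells held 4.81, 22.1, 95.03 and 15875 FPKM of Ccl2, so the highest held 99.2% of the sum, and Ccl2 ranked 2nd of 13926 by mean. Without it the mean was 40.6 FPKM. That cell carried Tagln (4902 FPKM), Dcn (81.5 FPKM), Postn (51.2 FPKM), Cxcl1 (444 FPKM) and Ccl7 (107 FPKM), and Cyp11a1 was 0 there. Cxcl12 was even by comparison, with 20.0, 25.6, 88.2 and 124 FPKM. The cell richest in Cxcl12 was the one with the least Ccl2, and it held 1868 FPKM of Cyp11a1.

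The fibroblast sample was uneven for both genes. Ccl2 was 0 in 5 of 10 cells, between 0.154 and 0.480 FPKM in 3, 12.1 FPKM in 1 and 1431 FPKM in 1, so the highest cell held 99.1% of the sum. Cxcl12 was under 1 FPKM in 6 cells and 35.01, 181, 262 and 317 FPKM in the others. In 3 of these 4 the matrix proteoglycan Lum was at 156 to 916 FPKM. In the cell with 317 FPKM of Cxcl12, Lum was 0.996 FPKM and the epithelial gene Epcam 310 FPKM. The cell with the most Ccl2 also held 805 FPKM of Cxcl1 and 158 FPKM of Ccl7. Across the 10 cells Ccl2 and Cxcl12 had r = 0.579, given as a description.

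Among the cells labelled neurons, Ccl2 reached 1 FPKM in 6 of 8 and Cxcl12 in 2. Ccl2 was 0, 0.195, 1.73, 3.26, 3.28, 12.3, 42.9 and 950 FPKM, and the highest cell held 93.7% of the sum. That cell was 1 of the 4 with low Tubb3, and its astrocyte genes Slc1a3 and Aqp4 were at 544 and 71.8 FPKM. It held the neuronal gene Gap43 at 66.02 FPKM, but Stmn2 and Tubb3 at 0.0867 and 0.0903 FPKM. It also held Lcn2 (899 FPKM), Ccl20 (458 FPKM), Vcam1 (237 FPKM) and Ccl7 (214 FPKM), with Col1a1 at 0.0761 FPKM but the most Tagln (447 FPKM) and Myl9 (201 FPKM) of the 8 cells. The other 3 cells with low Tubb3 held 0, 0.195 and 3.28 FPKM of Ccl2. Cxcl12 was highest, at 12.8 FPKM, in a cell with 330 FPKM of Tubb3 and 16.8 FPKM of Cxcr4. The other cells held at most 1.15 FPKM of Cxcl12.

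Few EB cells held either gene. The exact 95% intervals of the share of cells at 1 FPKM or more overlapped between the lines. They were 5.49% to 57.2% (MR2-1) and 0% to 52.2% (RM1-1) for Ccl2. For Cxcl12 they were 0.211% to 38.5% (MR2-1) and 5.27% to 85.3% (RM1-1). In MR2-1, Ccl2 was 1.16, 32.4 and 229 FPKM in 3 of 12 cells and under 1 FPKM in the other 9, whereas Cxcl12 reached 1 FPKM in 1 cell (3.63 FPKM). In RM1-1, Ccl2 stayed at or below 0.201 FPKM in all 5 cells, whereas Cxcl12 was 7.64 and 62.97 FPKM in 2. The MR2-1 cell with the most Ccl2 held mesenchymal genes, with Col1a1 at 470 FPKM, Postn at 510 FPKM and Tagln at 3708 FPKM, and 273 FPKM of Ccl7. It also held the neuronal genes Stmn2 and Tubb3 (238 and 174 FPKM) and the antigen-presentation gene Cd74 (87.1 FPKM). The cell with 32.4 FPKM of Ccl2 lacked these mesenchymal genes, with Postn at 0 and Col1a1 and Tagln under 0.1 FPKM. EBs differed from AdESCs by 2.22 ± 1.44 for Ccl2 (2 against 4 samples, adjusted p = 0.383, 95% interval -0.92 to 5.35) and by 2.17 ± 1.08 for Cxcl12 (adjusted p = 0.253, 95% interval -0.18 to 4.52), where 6.64% of genes were called. Both EB samples lay above every AdESC sample in Cxcl12, as in 17.4% of genes. Testis exceeded EBs by 5.24 ± 1.66 for Ccl2 (adjusted p = 0.356) and 2.92 ± 1.24 for Cxcl12 (adjusted p = 0.530), in a comparison of 2 against 2 samples that called 0.122% of genes. Both testis samples lay above both EB samples in Ccl2, as in 14.2% of genes, while Cxcl12 overlapped.

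Cells that held both Ccl2 and Cxcl12 came mostly from RM2-1 testis and RM2-1 lung. Of the 63 differentiated cells, 28 held at least 1 FPKM of both, 8 of Ccl2 alone, 6 of Cxcl12 alone and 21 of neither. Of the 28, 20 were RM2-1 testis cells and 4 were lung cells. Outside those samples, 2 cells labelled fibroblasts, 1 of them with 310 FPKM of Epcam, and 2 labelled neurons held both. In the EB and RM1-1 testis samples 0 cells did. Ccl2 was the higher of the pair in 35 of the 63 cells, and Cxcl12 in 20.

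**Figure D5:**
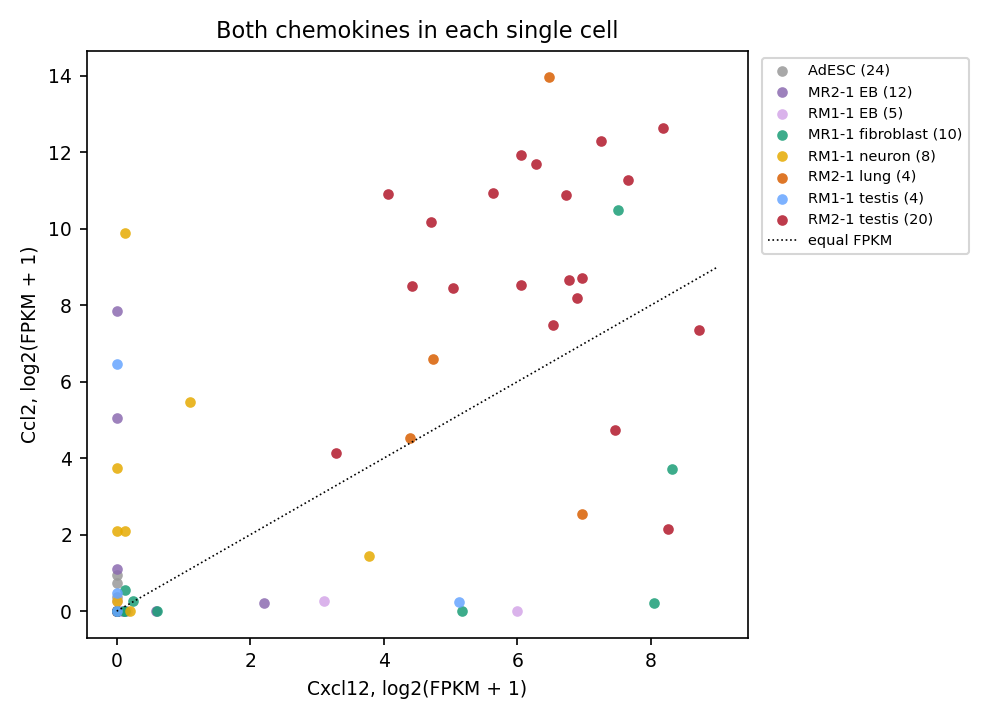
Ccl2 (vertical axis) against Cxcl12 (horizontal axis) in each of the 87 cells, both as log2(FPKM + 1), coloured by sample, with the number of cells in brackets and the line of equal FPKM dotted. RM2-1 testis and RM2-1 lung cells fill the upper right, and most EB and neuron cells with either gene lie along an axis.

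Over the means of the 11 single-cell samples, the 5 genes most like each of the pair were different ones. Nearest to Ccl2 among 8420 other genes were Lbh (r = 0.972), the collagen and elastin crosslinker Loxl1 (0.967), the protease Prss23 (0.952), the actin regulator Mical2 (0.949) and the kinase anchor Akap5 (0.946). Nearest to Cxcl12 were the fibrillar collagens Col5a2 (0.943) and Col11a1 (0.930), the collagen-binding receptor Antxr1 (0.925), the transcription factor Foxp1 (0.922) and Plscr3 (0.915). Between them, Ccl2 and Cxcl12 had r = 0.781, which ranked Cxcl12 268th for Ccl2 and Ccl2 159th for Cxcl12. The points share lines and scaling, and 4 of the 11 are AdESC samples.

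Besides the pair, Ccl7 and Cxcl1 were called higher in differentiated samples. Both were 0 in all AdESCs, so they could differ only upward. Of 12 ligands tested, the pair included, 4 passed in differentiated against AdESC samples, all upward, beside 7.37% of all genes called higher. These were Ccl2 and Cxcl12 themselves, Ccl7 and Cxcl1. The median difference over the 12 was 1.53, against 0.02 over all genes. In each AdESC sample at most 1 of the 32 ligands reached 1 FPKM, so most passed the filter through differentiated samples. The upward direction was thus largely set by the filter, here and in the testis and EB fits, and nothing is read from it. Ccl7 was 0 in all AdESCs and had means of 223 FPKM in RM2-1 testis, 52.9 FPKM in lung, 26.7 FPKM in neuron, 22.8 FPKM in MR2-1 EB, 15.8 FPKM in fibroblast, 4.20 FPKM in RM1-1 EB and 0 in RM1-1 testis. Cxcl1 was likewise 0 in all AdESCs and highest in RM2-1 testis (348 FPKM), lung (113 FPKM) and fibroblast (82.6 FPKM). In testis against AdESCs 3 of 10 ligands passed (Ccl2, Cxcl1 and Cxcl12), beside 6.19% of all genes called higher, and Cxcl1 alone of these is outside the pair. In EBs, where 6.64% of genes were called, 0 of 10 passed by limma, with 1 (Ccl7) at an unadjusted p under 0.05. These comparisons share their AdESC samples.

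NF-kB targets passed in part, and the receptor of Cxcl12 was low or absent where its ligand was highest. Of 13 NF-kB targets tested by limma, 3 rose in differentiated samples and 0 fell, beside 7.37% of genes called higher. These were Csf1 (3.14 ± 0.80, adjusted p = 0.0149), Nfkbia (3.20 ± 0.44, adjusted p = 0.000157) and Vcam1 (2.64 ± 0.75, adjusted p = 0.0265). In each AdESC sample 3 to 5 of the 16 measured reached 1 FPKM, so most passed the filter through differentiated samples. Nothing is read from the upward direction, here or in the testis and EB fits. In testis, 4 of 12 rose (Csf1, Nfkbia, Nfkbie and Nfkbiz), beside 6.19% of all genes called higher, and in EBs 1 of 12 (Nfkbia) did, beside 6.64% of genes called either way. Cxcr4 was 0 in all AdESC, MR2-1 EB, fibroblast and lung cells. It averaged 5.57 FPKM in neurons (at least 1 FPKM in 5 of 8 cells), 3.97 FPKM in RM1-1 testis (2 of 4) and 1.98 FPKM in RM1-1 EB (1 of 5), and 0.0171 FPKM in RM2-1 testis, where Cxcl12 was highest. Cxcr2, a neutrophil chemokine receptor, fell by 1.45 ± 0.42 on the log2 scale (adjusted p = 0.0308), the only one of 3 receptors tested to pass, beside 8.57% of genes called lower.

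Markers of other cell types were read beside these values. Smooth muscle and pericyte genes, 8 of 10 listed being measured, summed to 5580 FPKM in RM2-1 testis and 3373 FPKM in lung, the 2 samples with both chemokines in every cell, against 3.8 to 17.6 FPKM in AdESCs and 79.8 to 1009 FPKM in the other differentiated samples. Tagln made up most of both these sums. In the 4 lung cells it was 4.21, 452, 4201 and 4902 FPKM, and the lowest was the cell richest in Cxcl12. The fibroblast list summed to 1037 to 3885 FPKM in differentiated samples. Leukocyte genes, 11 of 12 listed being measured, summed to 0.7 to 14.9 FPKM in differentiated samples and 12.5 to 46.9 FPKM in AdESCs. Laptm5 alone gave 12.2 to 45.8 FPKM of the AdESC sums, and without it they were 0.331 to 4.95 FPKM, against 0.720 to 14.9 FPKM in differentiated samples. In addition, the pan-leukocyte gene Ptprc was 0 in every sample but RM2-1 testis (0.320 FPKM). The part of cell type in the differences of Ccl2 and Cxcl12 was not tested.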

How the data were processed

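The deposited values are FPKM per gene and library, made by the authors from RNA extracted with Trizol and TruSeq libraries run on an Illumina sequencer, per the labels and the series' design text. The submitters' processing notes list the builds mm10 and rn5 and the tools Cufflinks 2.1.1, TopHat2 2.0.10 and FastQC 0.10.1. The unit was taken from those notes. How mouse and rat values were joined in AdESCs is not given in the sources used here, and another rule would give other AdESC values. Tables were joined on gene symbol. Single-cell columns name their sample but not the cell, and 0 pairs of cells were identical. Group differences came from limma 3.58.1 in R 4.3.3, using log2(FPKM + 1), a variance prior that follows expression, and only genes averaging 1 FPKM or more in the fit. Each single-cell sample entered as the mean of its cells, since cells are not replicates. The bulk fit held all 8 libraries. The EB and testis fit held 8 samples. Scripts were tested on simulated data.

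Besides Ccl2 and Cxcl12, the text names the 5 genes most like each by Pearson r, ligands, receptors and NF-kB targets past 0.05, Ccr2, Cxcr4 and Ackr3, and markers that check a label. Of the genes this rule picks, 1 is not reported here. Cells with Ccl2 or Cxcl12 were also described by other genes chosen after their values were seen. The members and lists were chosen with earlier results of these data known. Of the lists, 6 ligands, 6 receptors and 5 NF-kB targets had no row under the listed symbol. The main fits held the group only and did not pair samples of 1 line. Cell line entered as a replicate block in an alternative fit. Deviations of same-line samples from their group means hardly varied together (r from -0.015 to 0.036 in 7 same-line pairs, and from -0.023 to 0.026 in 21 others). Alternatives were the pseudocount, the filter, upper-quartile scaling, the prior, the summary over cells, a line block and leaving out each library or sample. Sequences came from the GENCODE M21 transcripts. Intervals on shares of cells cover counting error only.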

Additional observations from a re-analysis of the deposited data

Results flagged for a closer look

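Of 20 groups of 4 to 10 values examined for a value far from the rest by Dixon's ratio on log2(FPKM + 1), 9 held one. Chance alone gives about 1 in 20, and groups in which all other values are 0 are flagged by any value above 0. For Ccl2 the highest cells of the AdESC samples were picked out at 0.935 FPKM (MR1-1), 0.671 FPKM (MR2-1) and 0.293 FPKM (RM2-1), each beside cells at 0. The highest fibroblast, at 1431 FPKM, stood above a next cell of 12.1 FPKM. The highest RM1-1 testis cell, at 87.8 FPKM, stood above 0.393 FPKM. For Cxcl12 the RM2-1 AdESC sample mean of 0.0117 FPKM, and its single cell of 0.0703 FPKM, stood beside values of 0. The highest neuron held 12.8 FPKM beside 1.15 FPKM, and the highest RM1-1 testis cell held 33.9 FPKM beside cells at 0.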

How the results depend on the processing

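Over the 14 differences of Ccl2 and Cxcl12, 167 of 186 alternative fits kept direction and side of the threshold, 15 no longer passed, 2 newly passed and 2 changed sign. The sign changes were in AdESC against mouse lines: Ccl2 at 0.0067 without F145 and Cxcl12 at -0.45 without F146. Leaving out each library in turn gave Ccl2 from -4.65 to 0.0067 in AdESC against mouse lines and from -7.41 to -2.75 in rat against mouse lines, and Cxcl12 from -0.45 to 0.82 in AdESC against mouse lines. In differentiated against AdESC samples it gave Ccl2 from 5.55 to 7.53 and Cxcl12 from 3.57 to 4.66, and in testis against AdESC samples Ccl2 from 4.43 to 10.48 and Cxcl12 from 3.24 to 6.94. With no filter on low values the calls were lost at unchanged estimates: -5.08 in rat against mouse lines (adjusted p = 0.0541), 6.46 and 4.05 in differentiated samples (0.0563 and 0.0597) and 7.46 and 5.09 in testis (0.0621 and 0.0673); this fit tests more genes. The mean over cells of log2(FPKM + 1) gave 3.30 and 2.72, a pseudocount of 0.1 gave 5.79 for Ccl2 in AdESC against rat lines, and the replicate block by cell line gave 4.50 for Cxcl12 in testis; the cause was not tested. The block changed no other call. It lowered the genes called from 546 to 249 (EB), 1012 to 449 (testis against AdESC) and 10 to 1 (testis against EB). Over all alternatives, genes called ran from 151 to 426 (AdESC against mouse), 223 to 1063 (AdESC against rat), 1059 to 2585 (rat against mouse), 791 to 1608 (differentiated), 249 to 711 (EB), 449 to 1190 (testis) and 1 to 121 (testis against EB). Over the 63 differentiated cells, those with Ccl2 numbered 36 from 1 FPKM, 45 above 0 and 30 from 10 FPKM, and those with Cxcl12 numbered 34, 46 and 30.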
